A study of Homo sapiens with 31 samples.

Results

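RNA captured with eIF4A2 was compared with the RNA of the lysates it came from, in HEK293 T-REx cells that express eIF4A2 with a streptavidin-binding peptide (SBP) tag. The comparison uses 2 pulldown and 2 input libraries, chosen by their labels, which are 4 of the 31 libraries of the series. HEK293 T-REx is a human embryonic kidney line built for inducible transgene expression. The cells of all 4 libraries carry the label SBP-eIF4A2 and no drug or siRNA treatment. Whether the transgene was induced, whether the cells also kept their own eIF4A2, and how many clones were used are not given in the sources used here.

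eIF4A2 is a DEAD-box RNA helicase and a close paralog of eIF4A1. eIF4A helps to unwind structure in the 5′ untranslated region as part of the eIF4F cap-binding complex, so that the small ribosomal subunit can load and scan. eIF4A2 has also been linked to the CCR4-NOT complex, which deadenylates and silences mRNAs, and the paralogs need not bind the same RNAs. A pulldown of the tagged protein recovers RNAs held directly or through partner proteins.

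The series asks how eIF4A1 and the RNA-binding protein LARP1 act on translation when the kinase complex mTORC1 is inhibited. Besides the SBP-eIF4A2 libraries, it holds an SBP-eIF4A1 experiment of the same layout (2 pulldown and 2 input libraries) and SBP-eIF4A1 pulldowns after control or LARP1 siRNA. It also holds ribosome profiling of naive, EIF4A1 knockout (KO) and EIF4A2 KO cells, treated with DMSO or the mTOR inhibitor PP242, and RNA-seq of naive and EIF4A1 KO cells. A mock pulldown from cells lacking any tagged protein was not analysed here, and RNA that sticks to the beads cannot be separated from RNA held by eIF4A2.

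Values are raw counts per Ensembl transcript, reduced to 1 transcript per locus because overlapping transcripts of a locus shared their reads. On this basis the 2 input libraries held 16971130 and 17594902 counts, and the 2 pulldown libraries 14488013 and 16230009. The SBP-eIF4A1 libraries without siRNA held 12578963 to 14030195. Gene names could not be attached to the Ensembl transcript IDs with the tables used here. Transcripts are therefore described by their values, by a deposited length whose unit is not stated, and by their behaviour in the other assays. For the same reason the level of EIF4A2 and the marker genes of the cell line could not be read as a check of the labels.

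The pulldown held a different mix of transcripts from its input, with changes of similar number in both directions. Of 25506 transcripts tested, 15315 (60.0%) differed between pulldown and input by edgeR's quasi-likelihood test at a Benjamini-Hochberg adjusted p under 0.05. Of these, 7613 (29.8% of those tested) were enriched and 7702 (30.2%) were depleted. The balance depends on the scaling between libraries: with upper-quartile scaling it was 7990 enriched to 7274 depleted. The median log2 enrichment over all tested transcripts was 0.02, with quartiles of -0.60 and 0.64. Among called transcripts the median absolute log2 enrichment was 0.91, and the median standard error over all tested transcripts was 0.16. Enrichments are relative within a library: without a spike-in they do not give the share of an mRNA that was bound.

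Large changes were less common and at the far end lay mostly on the depleted side. A log2 enrichment above 1 was called for 3464 transcripts, and one below -1 for 3245. Beyond 2 in size there were 463 enriched and 509 depleted transcripts, and beyond 3 there were 44 and 106. Both pulldown libraries lay above both inputs for 9832 transcripts and below both for 9829, which is 77.1% of those tested against the 60.0% called.

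**Figure D1:**
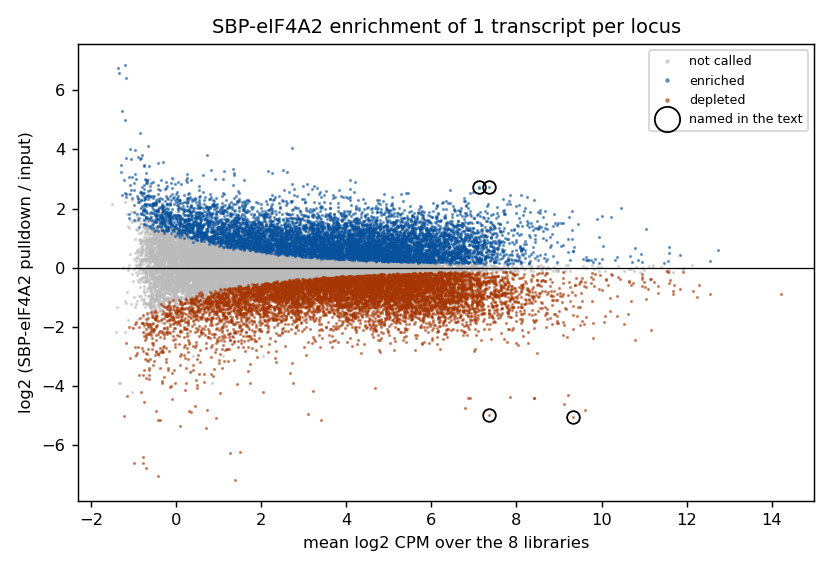
Log2 enrichment in the SBP-eIF4A2 pulldown over input (y axis) against mean log2 CPM over the 8 pulldown and input libraries of both proteins (x axis), 1 point per transcript. Blue points are the 7613 enriched, orange points the 7702 depleted and grey points the uncalled transcripts, and black circles mark the 4 transcripts named in the text.

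The 2 pulldown libraries gave closely similar enrichments, although they were the most variable pair. Each pulldown was set against the mean of the inputs for the 6276 abundant transcripts, those whose mean log2 CPM over the 8 libraries was 5 or more. Over these transcripts Pearson's r between the 2 pulldowns was 0.98. Set against different inputs, so that the 2 enrichments shared no library, r was 0.98 with the input of the same number and 0.98 with the inputs exchanged. The SD of the log2 difference between replicates was 0.179 for the SBP-eIF4A2 pulldowns, 0.079 for their inputs, 0.111 for the SBP-eIF4A1 pulldowns and 0.088 for the inputs of those. No replicate pair agreed within sampling noise, so each library was counted as 1 sample. The labels do not say that replicates came from separate cultures, so the p-values measure the spread between these libraries, which may be technical.

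Precision followed abundance. Among the 6276 abundant transcripts, 5321 (84.8%) were called, 2343 enriched and 2978 depleted. Their log2 enrichments ran from -5.02 to 2.74. The transcripts named next are abundant ones, by a rule that takes the 2 with the highest and the 2 with the lowest log2 enrichment among called transcripts whose pulldowns lay beyond both inputs.

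The most enriched transcript was ENST00000381497.6, with a deposited length of 360. Its counts were 941 and 1126 in the inputs and 6266 and 7447 in the pulldowns. Scaled to library size by the trimmed mean of M-values (TMM), these are 54.9 and 63.8 CPM (counts scaled to the library total) in the inputs and 381 and 412 CPM in the pulldowns. The groups did not overlap, as the rule requires, and the pulldowns lay far above both inputs. The log2 enrichment was 2.74 (SE 0.072, edgeR adjusted p = 4.2e-14), a 6.68-fold difference. The fit took its spread from all 8 libraries of both proteins. With the 4 SBP-eIF4A2 libraries alone, the log2 enrichment was 2.73 and the edgeR adjusted p was 1.65e-07. This mRNA was present in naive cells at 55.2 and 49.4 CPM in the 2 RNA-seq libraries, yet the 2 DMSO ribosome profiling libraries held only 3 and 1 footprint counts in it.

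ENST00000328085.10, of length 341, followed closely. Its level was 47.5 and 53.1 CPM in the inputs and 321 and 342 CPM in the pulldowns. The log2 enrichment was 2.72 (SE 0.068, edgeR adjusted p = 2.48e-14). In naive DMSO cells it held 2 and 3 footprint counts beside 50.4 and 46.5 CPM of RNA. The levels of these 2 transcripts had a Pearson's r of 0.999 over the 31 libraries, although they lie 198 rows apart in the files. The 4 most enriched transcripts all had an r of at least 0.996 with the first. These may share reads, and they are not counted as independent examples.

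At the other end, ENST00000304218.5, of length 210, was nearly lost from the pulldown. Its level was 1321 and 1390 CPM in the inputs against 42.0 and 41.3 CPM in the pulldowns. The log2 enrichment was -5.02 (SE 0.065, edgeR adjusted p = 1.56e-17), which is 32.5-fold lower. This abundant mRNA was well translated, with 12040 and 14701 footprint counts in the 2 naive DMSO libraries.

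ENST00000620438.1, of length 117, had a similar pattern. It had 337 and 334 CPM in the inputs and 11.4 and 10.1 CPM in the pulldowns. The log2 enrichment was -4.97 (SE 0.074, edgeR adjusted p = 3.95e-17). Its naive footprint counts were 5545 and 7130. The levels of the 2 depleted transcripts had an r of 0.951 over the 31 libraries, so these too are not counted as independent examples. For both depleted transcripts the highest pulldown value was more than an order of magnitude below the lowest input value.

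**Figure D2:**
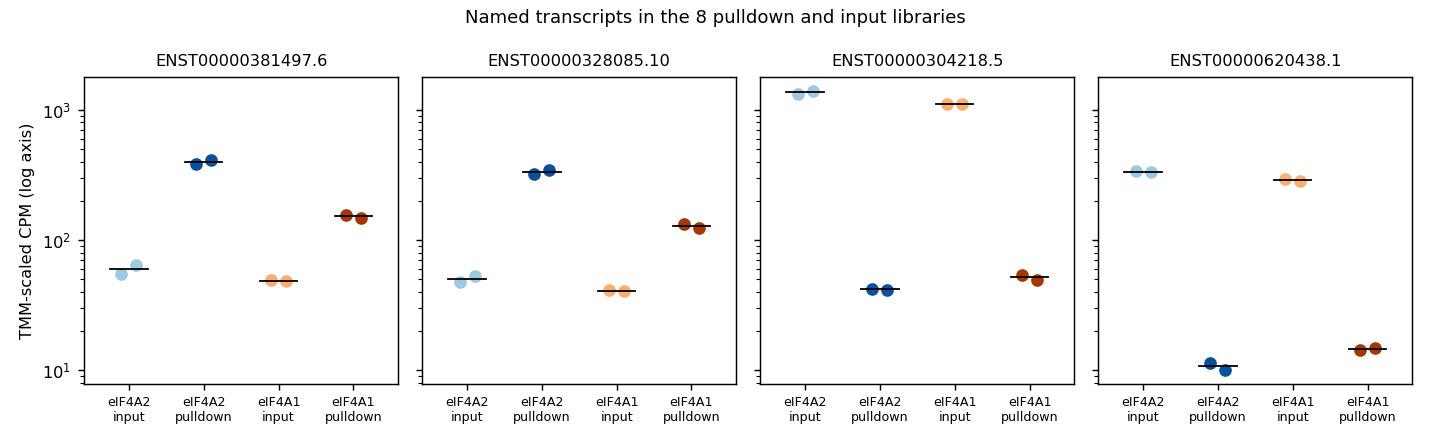
TMM-scaled CPM on a log axis (y) of the 4 named transcripts in the SBP-eIF4A2 and SBP-eIF4A1 input and pulldown libraries (x), 1 point per library with a bar at the mean of each pair. ENST00000381497.6 goes from 54.9 and 63.8 CPM to 381 and 412 CPM with SBP-eIF4A2, and ENST00000304218.5 from 1321 and 1390 CPM to 42.0 and 41.3 CPM.

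To describe which kinds of transcript the pulldown held, classes were formed from libraries that take no part in the pulldown. The set was the 17987 tested transcripts with at least 50 counts in both naive RNA-seq libraries. A further 41 loci passed that limit but were not tested. In this set 5655 transcripts (31.4%) were enriched and 6960 (38.7%) depleted, and the median log2 enrichment was -0.09. Each class below is 1 of 10 groups of equal size. Members of a class are not replicates, so the class values are descriptions with no test.

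Translation efficiency was taken as the log2 ratio of footprints to RNA in naive DMSO cells, fitted in edgeR and relative to the library totals. In this set, translation efficiency had a Spearman's rho of -0.29 with the enrichment, RNA level -0.19 and length -0.09. Among the 6276 abundant transcripts the order of the first 2 was the other way round, at -0.41 for translation efficiency and -0.45 for RNA level. There the rho for length was -0.21. In the decile with the lowest translation efficiency (median -1.91) the median log2 enrichment was 0.64, with 0.60 and 0.63 in the 2 pulldowns taken singly. There 62.9% of transcripts were enriched and 13.3% depleted. In the fifth decile the median was -0.14. In the decile with the highest translation efficiency (median 1.43) it was -0.33, with -0.30 and -0.32 in the single pulldowns, and 24.3% were enriched against 50.8% depleted. The change with translation efficiency was steepest over the lowest 3 deciles. SBP-eIF4A1 had the same order, with medians of 0.51 in the lowest decile and -0.19 in the highest.

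The most abundant mRNAs were mostly depleted. By RNA level in naive cells, whose RNA-seq libraries also enter the translation efficiency, the medians of the lower 6 deciles lay between 0.01 and 0.08. The ninth decile had a median of -0.31 and the tenth -0.59. In the tenth, 20.6% were enriched and 67.8% depleted. The share of all counts held by the 10 most abundant transcripts was 6.30% and 6.49% in the inputs against 5.24% and 5.55% in the pulldowns.

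Over the whole set, length mattered less for SBP-eIF4A2, and chiefly at the long end. The medians of the first 8 deciles lay at -0.11 or closer to 0. The ninth decile (median length 799) had a median log2 enrichment of -0.26. The longest decile (median length 1340) had -0.36, with 24.6% enriched and 54.1% depleted. The relation to length changed with abundance. In the highest quintile of RNA level the median went from 0.02 in the shortest quintile of length to -0.69 in the longest. In the lowest quintile of RNA level the same medians were -0.03 and 0.11, with 0.29 in the third quintile of length.

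**Figure D3:**
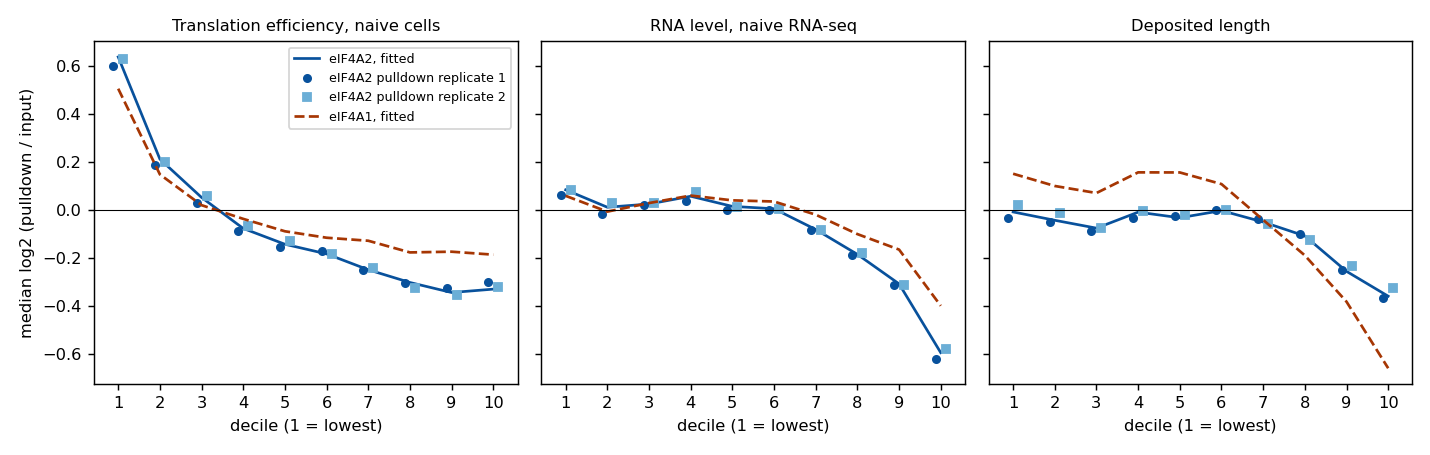
Median log2 enrichment (y) over deciles (x) of translation efficiency, RNA level and deposited length, for 17987 transcripts. The blue line is the fitted SBP-eIF4A2 enrichment, circles and squares are its 2 pulldowns taken singly against the mean input, and the dashed orange line is SBP-eIF4A1. The SBP-eIF4A2 median goes from 0.64 to -0.33 over translation efficiency and to -0.59 at the highest RNA level.

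The order by translation efficiency was also present within classes of RNA level and of length. In each quintile of RNA level, the quintile with the lowest translation efficiency had a median log2 enrichment of 0.34 to 0.50. The spread was widest among the most abundant mRNAs: there the median was 0.34 at the lowest translation efficiency, with 56.9% enriched, and -0.87 at the highest, with 9.48% enriched and 81.5% depleted. In the least abundant quintile the same medians were 0.37 and -0.07. By length, the strongest contrast lay in the 2 middle to long quintiles. In the third quintile of length the median was 0.71 at the lowest translation efficiency and -0.42 at the highest, and in the fourth it was 0.65 and -0.68. Among the shortest transcripts it was 0.08 and 0.04, so that translation efficiency hardly ordered them.

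**Figure D4:**
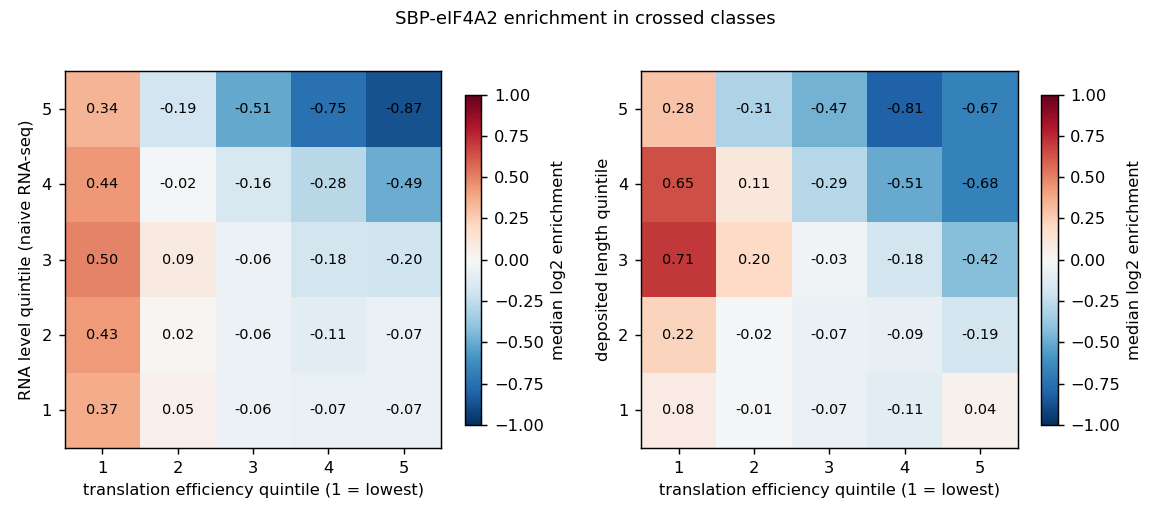
Median log2 enrichment with SBP-eIF4A2 (colour and printed value) in crossed quintiles of translation efficiency (x) and of RNA level (left, y) or deposited length (right, y), where 1 is the lowest quintile. Every RNA level has its highest median, 0.34 to 0.50, at the lowest translation efficiency, and the lowest cell on the left is -0.87 for abundant and well translated mRNAs.

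Transcripts with RNA but no detected ribosome footprint lay at the enriched end. There were 31 transcripts with at least 50 counts in both naive RNA-seq libraries and 0 footprint counts in both naive DMSO libraries. Their median log2 enrichment was 1.06, with 23 enriched and 3 depleted, beside 31.4% enriched in the whole set. Their median deposited length was 407, against 292 over the set.

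The 100 most enriched and 100 most depleted abundant transcripts differed in the same way, as a description of sets chosen by their enrichment. The most enriched, at 1.83 to 2.74, had a median translation efficiency of -1.94. Of these 100, 99 also had a positive log2 enrichment with SBP-eIF4A1, against 3126 of all 6276 abundant transcripts. A translation efficiency below -2 was found for 48 of the 100, against 4.54% of all 6276. The most depleted, at -5.02 to -2.0, had a median translation efficiency of 0.82 and 1 transcript below -2. All 100 had a negative log2 enrichment with SBP-eIF4A1, against 3150 of all 6276. The median length of the most depleted was 652.5, against 374.5 for the most enriched and 475 for all abundant transcripts.

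Footprint changes after loss of EIF4A2 itself showed little relation to what the tagged protein captured. Transcripts were ranked by their footprint change in EIF4A2 KO over naive DMSO cells, which was measured for 17160 of the set. The median log2 enrichment was 0.03 in the decile with the largest decrease of footprints, -0.24 in the sixth and -0.02 in the decile with the largest increase. Spearman's rho across transcripts was -0.04. For EIF4A1 KO cells the same ranking went from 0.28 in the decile with the largest decrease to -0.35 in that with the largest increase, with a rho of -0.25. The SBP-eIF4A1 enrichment had the same order, with a rho of -0.09 for EIF4A2 KO and -0.32 for EIF4A1 KO cells. The footprint changes spanned less in EIF4A2 KO cells, with decile medians of -0.55 to 0.49 against -0.91 to 0.68. Whether this affects rho was not tested. Both KO rankings share the naive DMSO libraries, and transcripts are not independent of each other. For the footprint change of naive cells under PP242, with both doses pooled, over DMSO, rho was -0.07 over 16874 transcripts.

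The capture by SBP-eIF4A2 was then set against that by SBP-eIF4A1, with the difference of the 2 log2 enrichments tested in the same fit. Of 25506 transcripts, 4146 (16.3%) differed between the proteins (edgeR, adjusted p under 0.05). Of these, 1449 (5.68% of those tested) were more enriched with SBP-eIF4A2 and 2697 (10.6%) less. The median absolute log2 difference among them was 0.60, and it exceeded 1 for 209 of the first kind and 332 of the second. The split depended on the scaling. Of the calls, 34.9% were higher with SBP-eIF4A2 under TMM, 40.8% with DESeq2's size factors (1651 higher, 2395 lower) and 47.4% with upper-quartile scaling (1928 higher, 2142 lower). The count also moved with single libraries. It was 7704 without SBP-eIF4A2 pulldown replicate 1 and 6605 without replicate 2. It was 2617 and 2434 without SBP-eIF4A2 input replicates 1 and 2, 2393 and 2626 without SBP-eIF4A1 input replicates 1 and 2, and 2502 without SBP-eIF4A1 pulldown replicate 2.

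The proteins came from different cells and from experiments with their own libraries. Differences between proteins, between cells and between experiments cannot be told apart. The 2 sets of inputs themselves differed for 4846 transcripts (19.0%) by the same test. Of the 4146 transcripts with a different enrichment, 1374 (33.1%) also differed between the inputs, which is 28.4% of the transcripts that did. Both tests use the same input libraries, so some of this overlap is built in.

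Transcripts captured more with SBP-eIF4A2 than with SBP-eIF4A1 without siRNA were long and poorly translated. Those captured less had about the length of all tested transcripts and a higher translation efficiency. The 1449 transcripts higher with SBP-eIF4A2 had a median length of 843 and a median translation efficiency of -0.71, against 209 and -0.05 over all tested transcripts. Their median log2 enrichment was 0.27 with SBP-eIF4A2 and -0.38 with SBP-eIF4A1. The 2697 lower transcripts had a median length of 211 and a median translation efficiency of 0.28. Their medians were -0.42 with SBP-eIF4A2 and 0.27 with SBP-eIF4A1. Calls were more frequent among the 6276 abundant transcripts, at 41.7% against 16.3% of all tested. The median length of the abundant transcripts was 475, and the lower transcripts were short beside them.

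Over the 17987 transcripts with RNA in naive cells, 7.61% were called higher and 14.6% lower with SBP-eIF4A2. In the shortest decile 1.11% were higher and 12.6% lower, and the median log2 difference was -0.19. The lower calls were most frequent in the middle deciles, at 24.5% in the fifth, where the median difference was -0.20. In the longest decile 32.6% were higher and 2.22% lower, and the median difference was 0.27. With SBP-eIF4A1 the median log2 enrichment went from 0.15 in the shortest decile to -0.66 in the longest, whereas with SBP-eIF4A2 it went from -0.01 to -0.36. The longest decile thus had a negative median with both proteins, closer to 0 with SBP-eIF4A2. Spearman's rho between length and the difference was 0.18 across all 25506 tested transcripts, 0.31 across the 17987 and 0.63 across the 6276 abundant ones. Abundance separated the short transcripts further: in the highest quintile of RNA level the median difference was -0.66 for the shortest quintile and 0.11 for the longest.

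**Figure D5:**
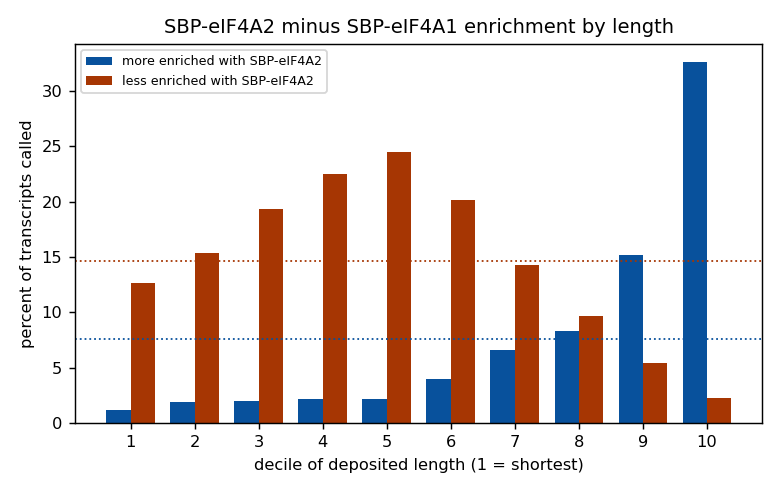
Percent of transcripts (y) called more (blue) or less (orange) enriched with SBP-eIF4A2 than with SBP-eIF4A1, by decile of deposited length (x), over 17987 transcripts. Dotted lines give the shares over the whole set, 7.61% and 14.6%. The longest decile has 32.6% higher and 2.22% lower.

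Few transcripts were called in opposite directions. Of 25506 tested, 84 were enriched with SBP-eIF4A2 and depleted with SBP-eIF4A1, and the difference was called for all 84. They were long (median length 878.5) and poorly translated (median translation efficiency -1.09), with median log2 enrichments of 0.37 and -0.37. A further 258 of the 25506 were depleted with SBP-eIF4A2 and enriched with SBP-eIF4A1, with the difference called for all 258. These were short (median length 171), with a median translation efficiency of 0.26 and medians of -0.37 and 0.37.

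The named transcripts kept their direction with SBP-eIF4A1 but not their size. They were chosen as the extremes of the SBP-eIF4A2 enrichment, which favours a larger size with that protein, so their differences are given as a description, with no test. ENST00000381497.6 had 49.1 and 48.2 CPM in the SBP-eIF4A1 inputs and 156 and 148 CPM in the pulldowns, a log2 enrichment of 1.64. It was 1.10 higher with SBP-eIF4A2. For ENST00000328085.10 the log2 enrichment with SBP-eIF4A1 was 1.65 and the difference 1.07. Both depleted transcripts had lower values with SBP-eIF4A2. ENST00000304218.5 had a log2 enrichment of -4.43 with SBP-eIF4A1 and a difference of -0.60. ENST00000620438.1 had -4.31 and a difference of -0.66.

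The SBP-eIF4A2 pulldown was also set beside the SBP-eIF4A1 pulldown after control siRNA, a separate experiment with its own 2 inputs and 2 pulldowns. The enrichments with SBP-eIF4A2 and with SBP-eIF4A1 without siRNA had a Spearman's rho of 0.86 with each other across the 17987 transcripts. Both were less like the control siRNA one. Across 17938 transcripts, Spearman's rho of the control siRNA enrichment was 0.44 with SBP-eIF4A2 and 0.19 with SBP-eIF4A1 without siRNA. From the lowest to the highest decile of the control siRNA enrichment, the median with SBP-eIF4A2 went from -0.77 to 0.66. In the lowest decile 6.19% were enriched and 74.5% depleted with SBP-eIF4A2, and in the highest 66.1% and 9.64%. The median length rose from 195 in the lowest decile to 617 in the highest, so higher enrichment went with greater length in that SBP-eIF4A1 experiment. With SBP-eIF4A2 the longest decile had a negative median, -0.36. The difference between SBP-eIF4A2 and SBP-eIF4A1 without siRNA had a rho of 0.51 with the control siRNA enrichment. The 2 SBP-eIF4A1 experiments differ in transfection and in any other step between them, which cannot be told apart. The named transcripts had control siRNA log2 enrichments of 3.65 and 3.66 for the enriched and -4.56 and -5.03 for the depleted ones.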

How the data were processed

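Per the labels' protocols, tagged protein was captured on streptavidin beads and eluted with biotin, and pulldown and input libraries were prepared with TruSeq Stranded mRNA. The submitters' processing notes name CASAVA 1.8, STAR 2.7.0a and hg38. The counting tool and annotation are not given in the sources used here. The authors deposited raw counts per transcript, in whole numbers, and a length per transcript as the other measure. Lengths run from -9 to 35982 in a unit not stated, so they only ranked transcripts. All 126981 transcripts of 227264 without a length had counts of 0, and no more is known of the region counted.

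Rows with equal counts were collapsed to 77343. They were then taken by total count, and a row was dropped when its log2 CPM (pseudocount 0.5) correlated at 0.9 or more with a kept row within 10 rows. This approximate rule left 34313 transcripts. Transcripts could not be paired with genes, so 22 gene lists and the marker genes were not run, and no sequence is shown. edgeR 4.0.16 in R 4.3.3 (TMM, filterByExpr with a minimum count of 10 and a minimum total count of 15, glmQLFit, glmQLFTest, two-sided, Benjamini-Hochberg over all tested transcripts) fitted the 8 libraries without siRNA, with 1 mean per group, and tested both enrichments and their difference as contrasts. Translation efficiency, KO, PP242 and control siRNA values came from separate edgeR fits. The PP242 value set both doses, with 1 library per dose, together as a single group against DMSO. Scripts were tested on simulated counts. Alternatives were other scalings, filters, DESeq2 1.42.0, a replicate block, the 4 libraries alone, and leaving out each library. Named transcripts are the 2 most enriched and the 2 most depleted called transcripts whose mean log2 CPM was 5 or more, with both pulldowns beyond both inputs. The comparison, lists and classes were chosen with earlier results of these data known.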

Additional observations from a re-analysis of the deposited data

Results flagged for a closer look

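A test of the difference between SBP-eIF4A2 and SBP-eIF4A1 passed for 4146 transcripts, with edgeR's quasi-likelihood test. The log2 enrichment with SBP-eIF4A2 differed from that with SBP-eIF4A1 by 1.10 for ENST00000381497.6 and by 1.07 for ENST00000328085.10, both higher. It differed by -0.60 for ENST00000304218.5 and by -0.66 for ENST00000620438.1, both lower. The 4 were chosen as the extremes of the SBP-eIF4A2 enrichment, which favours a larger size with that protein, so their differences are descriptions. The tagged proteins came from different cells and experiments, so protein, cells and experiment cannot be told apart. With 2 libraries per group, no library could be tested as an outlier within its group.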

How the results depend on the processing

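The log2 enrichments of the 4 named transcripts kept their direction in all 64 alternative values, as did their differences from SBP-eIF4A1 in all 60. The count of 15315 called transcripts stayed within 1.5 times under each scaling, filter, tool and left-out library tried, at 10942 with at least 50 counts in every library and 12705 with DESeq2. When all distinct transcripts were tested in place of 1 per locus, 44799 were called (22087 enriched, 22712 depleted). In that setting 13212 differed between the proteins (4907 higher with SBP-eIF4A2, 8305 lower). It started from 77343 transcripts in place of 34313, and the share called is not given here. Leaving out 1 library moved the number that differed between the proteins to between 2393 and 7704, with 670 to 3073 higher and 1700 to 4631 lower. The cause was not tested. With at least 50 counts in every library, 45.2% of the differing transcripts were higher with SBP-eIF4A2 (1944 against 2358 lower). With the 4 SBP-eIF4A2 libraries alone, 13467 transcripts were called (6685 enriched, 6782 depleted). With the replicate block, 15085 transcripts were called (7448 enriched, 7637 depleted) and 4021 differed between the proteins. Same-numbered input and pulldown deviated together only weakly (r of 0.126 for SBP-eIF4A2 and 0.050 for SBP-eIF4A1), with 2 pairs per protein, so the numbers are not taken as pairing the samples. Of 122 alternative values of the class medians, 52 moved by more than the spread between the pulldowns. The median in the decile with the lowest translation efficiency ran from 0.60 to 0.79, and in that with the highest from -0.36 to -0.25. The median of the lowest RNA-level decile ran from 0.03 to 0.57, and that of the shortest decile changed sign, from -0.08 to 0.17. The highest value of both came with at least 50 counts in every library, a limit that removes depleted transcripts of low level.

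Depth limits the calls at low levels: 10191 of the tested transcripts were not called, and this does not show that they were captured in proportion to their input.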

Other observations

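A small group of abundant transcripts stood apart at the depleted end, as noted after their values were seen. The 11 most depleted transcripts whose mean log2 CPM was 5 or more had log2 enrichments of -5.02 to -4.29 with SBP-eIF4A2, and the next stood at -2.88. They were abundant, at a mean log2 CPM of 6.79 to 9.62, and well translated, with translation efficiencies of 0.52 to 2.43 in naive cells. They were also depleted with SBP-eIF4A1, at -4.43 to -2.76, and with SBP-eIF4A1 after control siRNA, at -5.46 to -4.56.

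Their deposited lengths repeated, so the 11 are not counted as independent of each other. Of the 11, 5 had a length of 117, 2 of 94 and 2 of 127. Among all 6276 transcripts at that level, 11, 9 and 10 had these lengths, together 0.478%. These lengths were picked because they repeat among the 11, so their frequency there is only a description. None of the 100 most enriched transcripts had any of them, which is no contrast at a share of 0.478%.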
